A study of Rattus norvegicus with 8 samples.

Results

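The splicing factor genes described here are the SR protein, hnRNP, snRNP protein, SF3A/SF3B and PRP factor genes of a rat dental epithelial cell line, taken by symbol. They are the rows of the authors' table whose symbol starts with Hnrnp or Snrp, or with Srsf, Sf3a, Sf3b or Prpf and a digit, and that reached 1 CPM (read counts scaled to library size) in at least 4 of 8 libraries. Of 73 symbols that matched, 61 passed, among 6849 genes of 30240 that met the same level. The families kept 10 of 13 Srsf, 18 of 22 Hnrnp, 14 of 16 Snrp, 8 of 9 Sf3 and 11 of 13 Prpf symbols. Prpf4 and Snrpc-ps3, by its symbol a pseudogene, lay just inside the level, with 4 libraries at 1 CPM or more. Hnrnpa0 and Prpf18 lay just outside with 3. Among the 12 left out, Srsf8, Srsf12 and Snrpc-ps7 had 0 reads in all 8 libraries.

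SF2 cells are an epithelial line grown out of rat lower incisors, from the cervical loop where enamel-forming cells arise, and the line's name has nothing to do with the older name of Srsf1. The libraries labelled AmeloD came from SF2 cells that overexpress AmeloD, the Ascl5 product and a transcription factor of the basic helix-loop-helix class, and the others were labelled Control. Each genotype was combined with the plasmid label pCMV6.ODAM or pCMV6 and with the label TGF or N, giving 8 groups of 1 library each; the labels spell out neither TGF nor N, and name no promoter, clone or separate culture. The genotype, TGF and plasmid differences were each read over 4 libraries against 4. No combination was repeated, so p-values measure only the spread that the 3 factors leave among these 8 libraries. Values per library are given in the order pCMV6.ODAM TGF, pCMV6 TGF, pCMV6.ODAM N and pCMV6 N.

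Introns are removed by the spliceosome, which is assembled on each pre-mRNA from small nuclear ribonucleoproteins (snRNPs) and many further proteins. Sm proteins (Snrpb, Snrpd, Snrpe and Snrpg genes) form the ring of the snRNPs, SF3A and SF3B hold the U2 snRNP on the branch point, and PRP factors act mainly in the U1 and U5 particles and the tri-snRNP. SR proteins bind exons and usually favour their inclusion, hnRNPs often act against them, and several genes of both families limit their own mRNA through exons that trigger its decay. The libraries read the 3′ ends of mRNAs by gene, so no isoform or exon choice was measured. The tests compared levels between libraries and not between genes.

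Taking the smallest CPM step as 1 read gave library totals of 10568146 to 13668736 reads in AmeloD and 14766931 to 17775226 in Control. Depth inferred in this way moved with genotype, and its part in the genotype differences was not tested. The genes of the table took 15.6% to 17.5% of these reads, and a count of 0 allowed up to 3 reads, or 0.169 to 0.284 CPM, for counting error only. Ascl5 had 0 reads in every library, so the genotype rests on the labels. Odam had 10 and 17 reads in the Control pCMV6.ODAM libraries and 0 to 1 in pCMV6 libraries. In the AmeloD pCMV6.ODAM libraries it had only 1 and 3 reads, within the 3 reads allowed for a count of 0. There the plasmid, too, rests on the labels. Of 6 epithelial markers 4 were in the table (Krt5, Krt17, Cdh1 and Epcam), all 4 were higher in AmeloD, and their summed level was 731 to 840 CPM in AmeloD and 499 to 641 CPM in Control. Leukocyte markers, nearly all of it Cd68, summed to 2.77 to 3.73 CPM in AmeloD and 0.876 to 1.63 CPM in Control, while Ptprc had 1 read in all, Fcer1g 11 and the other 2 of the 5 had 0. Endothelial markers stayed at 0.742 to 2.19 CPM in AmeloD and 1.01 to 1.95 CPM in Control. Mesenchymal markers, nearly all of it Col3a1, summed to 17.4 to 26.4 CPM in AmeloD and 33.4 to 63.0 CPM in Control, with 4 of 7 at 0 reads. The part of these markers in the results below was not tested, and in bulk RNA fewer cells of a kind and less RNA per cell cannot be told apart.

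Few splicing factor genes differed between the genotypes. In AmeloD 3 members were lower, Hnrnpa2b1, Srsf5 and Prpf39, 0 were higher and 58 did not pass the test (limma on log2(CPM + 1), adjusted over 6849 genes, threshold 0.05). Of all tested genes 4.75% were called lower and 9.07% higher, and 3 of 61 members is close to the share called lower. At an unadjusted p under 0.05, 1 member (Prpf40b) was higher and 8 were lower, against 1166 and 683 of the 6849 tested genes. The 95% interval of the genotype difference stayed within 1 log2 unit either way for 60 of 61 members, all but Prpf39, and for 92.6% of all tested genes. The log2(CPM + 1) scale understates changes of genes near 1 CPM. For such members these intervals do not bound the fold change in CPM. The 3 lower members were at 1 CPM or more in all 8 libraries, so none entered through 1 genotype alone. A size above 0.5 log2 was found in 4 members (6.56%), against 13.4% of all tested genes.

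Small differences leaned downwards. Of the 61 members 40 lay below 0 (65.6%), against 43.0% of all tested genes, and the median log2 fold change was -0.09 over the members and 0.05 over all tested genes. The 4 AmeloD libraries all lay below the 4 Control libraries for 6 members (9.84%), where 5.53% of all tested genes did so. They were Srsf1, Srsf5, Srsf6, Hnrnpa2b1, Snrpb and Prpf39. No member lay wholly above, which 9.49% of all tested genes did. In 4 comparisons of libraries alike in plasmid and TGF label, 10 members (16.4%) were lower in AmeloD each time, where 12.6% of all tested genes were. In the same comparisons 1 member (1.64%), Prpf40b, was higher each time, against 20.6% of all tested genes.

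**Figure D1:**
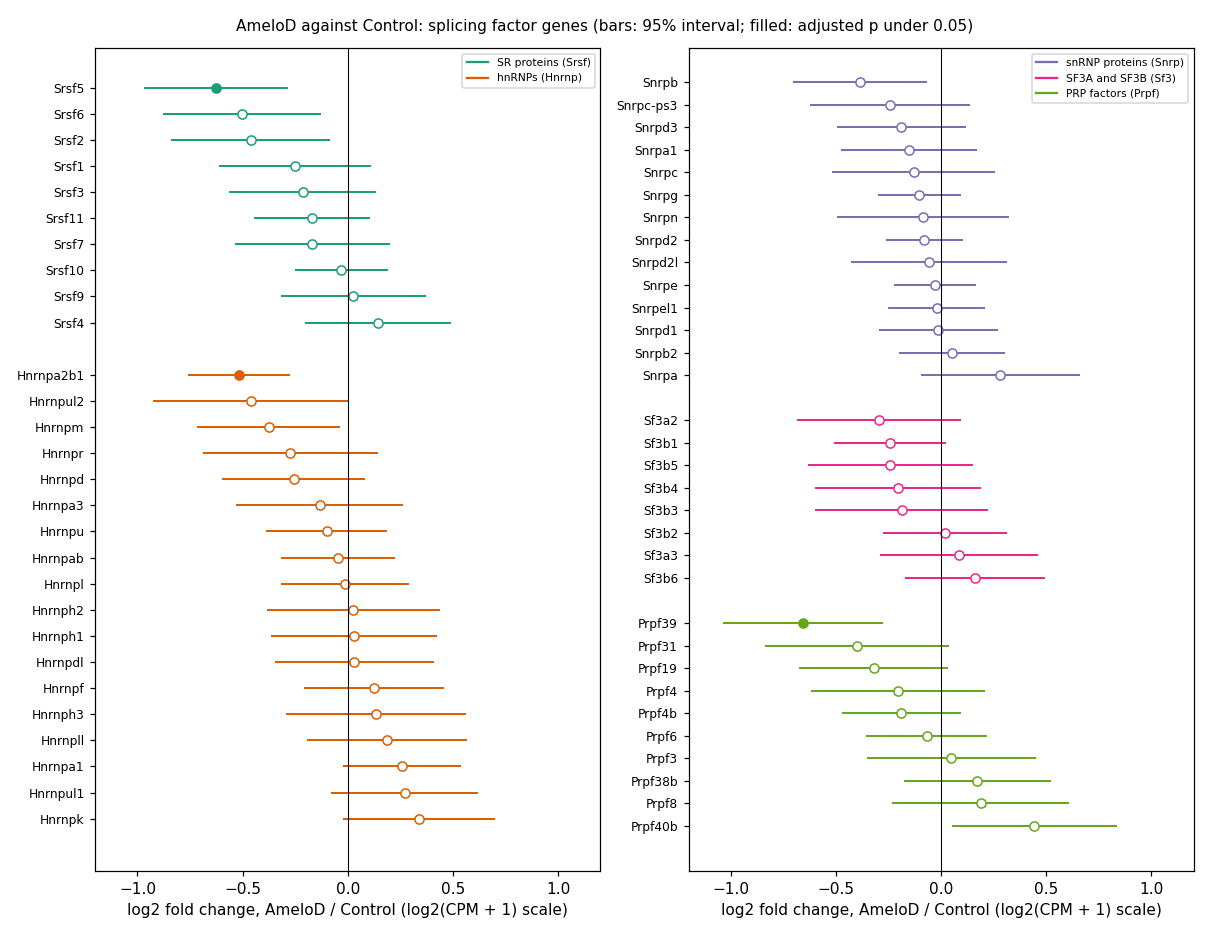
Log2 fold change of AmeloD over Control (x axis, log2(CPM + 1) scale) for 60 of the 61 members, with the 95% interval as a bar, coloured by family; filled points had an adjusted p under 0.05. The filled points are Srsf5, Hnrnpa2b1 and Prpf39, all left of 0, and most other intervals cross 0.

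Hnrnpa2b1, whose hnRNP A2 and B1 proteins coat newly made RNA and steer exon choice and mRNA transport, lies at chr4:80534651-80545249 on the minus strand (mRatBN7.2) and had 34.1, 38.8, 40.6 and 50.2 CPM in AmeloD libraries, against 60.8, 54, 65.3 and 54.1 CPM in Control libraries. The highest AmeloD library, pCMV6 N, came close to the lowest Control library, and the groups did not overlap. The mean was 40.9 ± 6.74 CPM in AmeloD and 58.5 ± 5.51 CPM in Control (SD, n = 4 each), from 1963 and 3724 reads. Its log2 fold change was -0.52 ± 0.12 (SE), or 0.699 times, with a limma adjusted p of 0.00304. Over all 15 alternative settings it remained lower in AmeloD and called, with log2 fold changes of -0.62 to -0.44.

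Srsf5, an SR protein that binds exonic enhancers, lies at chr6:100605456-100610177 on the plus strand and had 3.37, 3.97, 2.97 and 4.45 CPM in AmeloD libraries, against 6.43, 5.91, 6.43 and 5.95 CPM in Control libraries. Every AmeloD library lay below every Control library, and the Control libraries were close to each other. The means were 3.69 ± 0.654 CPM in AmeloD and 6.18 ± 0.293 CPM in Control (SD, n = 4 each), and the log2 fold change was -0.62 ± 0.16 (SE), limma adjusted p = 0.0105. Without the AmeloD pCMV6.ODAM N library or without the Control pCMV6.ODAM N library the call was lost, at limma adjusted p of 0.0583 and 0.0593.

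Prpf39, a protein of the U1 snRNP that takes part in 5′ splice site choice, lies at chr6:83088986-83113825 on the plus strand and had 1.17, 1.66, 1.04 and 1.14 CPM in AmeloD libraries, against 3.25, 2.36, 2.17 and 2.44 CPM in Control libraries. The groups did not overlap, but the gene rests on few reads, 60 over the AmeloD libraries and 163 over the Control libraries. The means were 1.25 ± 0.280 CPM in AmeloD and 2.55 ± 0.477 CPM in Control (SD, n = 4 each), with a log2 fold change of -0.66 ± 0.18 (SE), limma adjusted p = 0.0154. The log2(CPM + 1) scale understates the change of so low a gene. The call was lost without the level filter (limma adjusted p = 0.0525) and without any one of AmeloD pCMV6.ODAM TGF (0.0576), Control pCMV6 N (0.0521) or Control pCMV6.ODAM TGF (0.0606). The 3′ ends of Prpf39 and of Fkbp3, on the opposite strand, overlap by 40 bases in the file's gene models, and the sources used here do not give the strand setting of the counting. Fkbp3 itself averaged 20.6 ± 1.04 CPM in AmeloD and 21.3 ± 2.49 CPM in Control (SD, n = 4 each).

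The promoters of these 3 genes are shown because AmeloD belongs to a class of factors that bind the E-box, CANNTG. Each is 250 bases before to 50 after the start of the gene, from RefSeq on build GRCr8, written 5′ to 3′ on the gene's strand. Capitals mark CANNTG, which reads the same on both strands, and CCGGAAG, an ETS factor core, searched on both strands; the 2 motifs share no overlap here.
Hnrnpa2b1 promoter, chr4:81875837-81876136, minus strand: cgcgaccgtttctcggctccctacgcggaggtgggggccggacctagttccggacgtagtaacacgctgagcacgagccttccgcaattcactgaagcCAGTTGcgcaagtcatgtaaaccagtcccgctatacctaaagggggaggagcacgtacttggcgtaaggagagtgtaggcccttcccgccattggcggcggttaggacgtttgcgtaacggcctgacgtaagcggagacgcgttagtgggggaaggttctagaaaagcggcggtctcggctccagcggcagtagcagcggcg
Srsf5 promoter, chr6:106336506-106336805, plus strand: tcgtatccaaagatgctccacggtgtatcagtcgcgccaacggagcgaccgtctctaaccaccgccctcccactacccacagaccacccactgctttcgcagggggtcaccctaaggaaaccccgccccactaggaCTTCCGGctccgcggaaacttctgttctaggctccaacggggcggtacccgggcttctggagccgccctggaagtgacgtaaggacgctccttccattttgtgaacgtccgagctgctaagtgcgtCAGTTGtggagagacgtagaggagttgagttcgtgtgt
Prpf39 promoter, chr6:88824990-88825289, plus strand: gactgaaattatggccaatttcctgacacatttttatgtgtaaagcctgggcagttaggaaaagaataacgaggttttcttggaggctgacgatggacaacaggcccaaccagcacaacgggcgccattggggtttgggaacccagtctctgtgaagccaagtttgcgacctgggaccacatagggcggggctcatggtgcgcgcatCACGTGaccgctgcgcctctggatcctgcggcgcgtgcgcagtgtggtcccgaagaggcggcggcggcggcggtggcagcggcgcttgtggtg
Hnrnpa2b1, Srsf5 and Prpf39 each hold 1 CANNTG, and Srsf5 also holds 1 CCGGAAG on the opposite strand. RefSeq promoters were matched by symbol, chromosome and strand for 54 of the 61 members, and CANNTG stood in 37 of them (68.5%), against 71.6% of 27457 rat promoters of the same length. CAGCTG, one form of CANNTG, stood in 9 (16.7%, against 15.1%). CCGGAAG stood in 15 (27.8%, against 9.22%), CCAAT in 29 (53.7%, against 37.7%), GGGCGG in 30 (55.6%, against 34.9%) and TATAAA in 5 (9.26%, against 14.3%), each on both strands. The median number of CpG pairs was 24 in the members' promoters and 7 in all promoters. The members were kept for their level of 1 CPM or more, while the 27457 promoters were not picked by level. Whether promoters of other expressed genes hold these motifs or CpG pairs as often was not tested. These matches describe letters in a fixed window and no binding was measured.

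Of the 6 members with separate genotypes, 3 were among the 10 SR protein genes, where 5.53% of all tested genes lay wholly lower. Of these 10 members 8 lay below 0, against 43.0% of all tested genes, with a median log2 fold change of -0.19. The snRNP family leaned the same way, with 12 of 14 members below 0. Summed over the SR family, levels were 84.5 to 92.4 CPM in AmeloD and 91.6 to 109 CPM in Control, which overlap slightly. Besides Srsf5, 9 members did not pass the limma test, where 4.75% of all tested genes were called lower and 9.07% higher. Srsf6, which binds exonic enhancers and was picked out after its values were seen, had 1.68, 2.68, 2.45 and 1.80 CPM in AmeloD libraries, against 3.18, 3.49, 3.66 and 3.38 CPM in Control libraries. These do not overlap, yet the limma adjusted p was 0.0646 (log2 fold change -0.50 ± 0.18, SE). It passed the threshold with TMM scaling (0.0382), with equal medians (0.0333), with edgeR's quasi-likelihood test on the recovered reads (0.0455) and without AmeloD pCMV6 TGF (0.0449).

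Srsf1, the longest studied SR protein, had 2.27, 2.86, 2.82 and 2.37 CPM in AmeloD libraries, against 2.92, 3.43, 3.32 and 3.32 CPM in Control libraries. The groups did not overlap but lay close together, with a log2 fold change of -0.25 ± 0.17 (SE) and a limma adjusted p of 0.388. Srsf2, which acts on exonic enhancers and in transcript elongation, had 3.44, 7.02, 6.60 and 6.81 CPM in AmeloD libraries, against 6.82, 7.09, 6.09 and 16.0 CPM in Control libraries. The 6 other libraries were alike, and AmeloD pCMV6.ODAM TGF stood low and Control pCMV6 N high. Its log2 fold change of -0.46 ± 0.18 (SE) did not pass (limma adjusted p = 0.0911), but passed with TMM scaling (0.0408), equal medians (0.0424), edgeR (0.0386) and without Control pCMV6.ODAM N (0.0393).

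Srsf3, the smallest SR protein, averaged 3.67 ± 0.279 CPM in AmeloD and 4.46 ± 0.791 CPM in Control (SD, n = 4 each), which overlap (limma adjusted p = 0.448). Srsf10, which can repress splicing when it loses its phosphates, averaged 44.2 ± 4.24 CPM in AmeloD and 45.0 ± 2.32 CPM in Control, with an interval of -0.25 to 0.19 log2. Srsf11, an SR-related protein, averaged 14.1 ± 0.565 CPM in AmeloD and 16.0 ± 1.81 CPM in Control (limma adjusted p = 0.448). The other 3 SR genes, Srsf4, Srsf7 and Srsf9, had log2 fold changes of -0.17 to 0.14 and limma adjusted p of 0.605 or more.

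**Figure D2:**
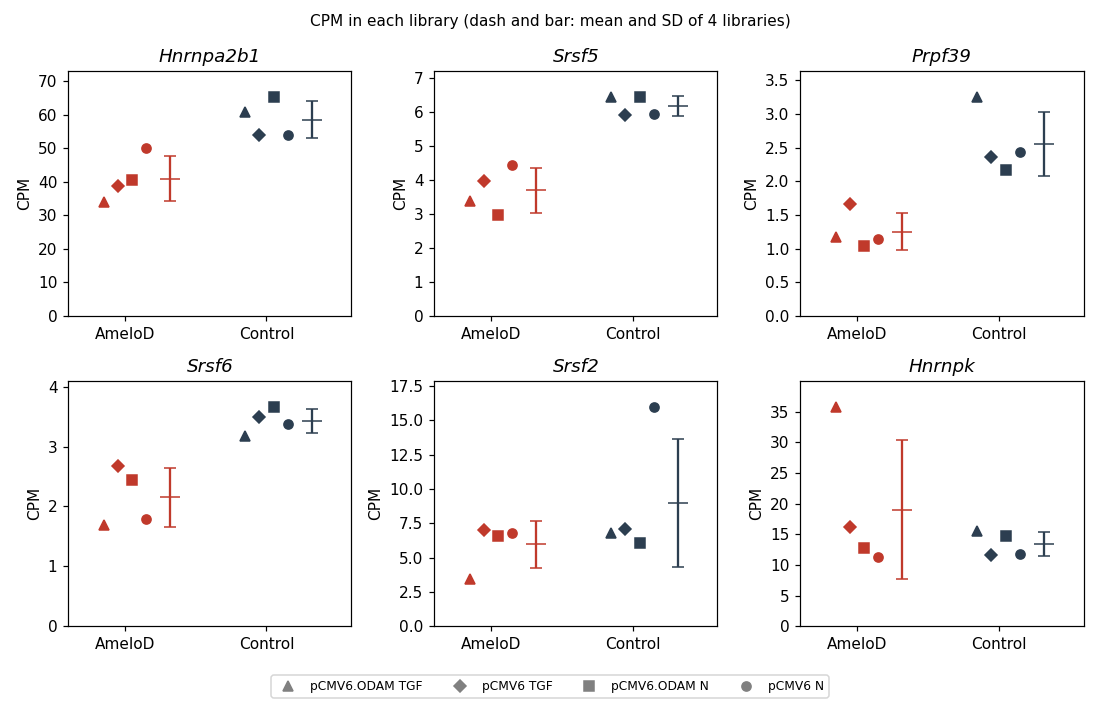
CPM (y axis, from 0) of 6 members in each library, AmeloD left and Control right; the point shape gives plasmid and TGF label, and the dash with bar gives mean and SD of 4 libraries. Hnrnpa2b1, Srsf5, Prpf39 and Srsf6 are separate between the genotypes, while Srsf2 and Hnrnpk are set apart by single libraries.

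The hnRNP genes were divided evenly, with 9 members above and 9 below 0 and a median log2 fold change of 0.01. Hnrnpa2b1 was the only one of 18 to pass the limma test, where 4.75% of all tested genes were called lower and 9.07% higher. At an unadjusted p under 0.05 there were 3 lower and 0 higher, against 683 and 1166 of the 6849 tested genes. The Hnrnpa2b1 relatives Hnrnpa1 and Hnrnpa3 did not pass. Hnrnpa1, which often represses exons, had 17.5, 15.6, 14.5 and 16.2 CPM in AmeloD libraries, against 12.5, 11.4, 14.7 and 14.2 CPM in Control libraries, mostly higher in AmeloD with slight overlap (log2 fold change 0.26 ± 0.13, SE; limma adjusted p = 0.220). Hnrnpa3, a relative that also takes part in mRNA transport, had 8.56, 18.8, 15.1 and 29.9 CPM in AmeloD libraries, against 21.7, 16.8, 16.9 and 17.8 CPM in Control libraries. The AmeloD libraries spread on both sides of the Control libraries, and the means were 18.1 ± 8.94 CPM in AmeloD and 18.3 ± 2.32 CPM in Control (SD, n = 4 each). Reads of Hnrnpa1 and its relatives can be shared with near-identical pseudogenes, and the sources used here do not give the handling of such reads.

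Hnrnpk, a poly-C binding protein active in splicing, transcription and translation, had 35.7, 16.2, 12.8 and 11.3 CPM in AmeloD libraries, against 15.6, 11.6, 14.6 and 11.8 CPM in Control libraries. One library, AmeloD pCMV6.ODAM TGF, stood above the rest, which overlapped between genotypes (limma adjusted p = 0.213). The pseudogene Hnrnpk-ps1 was also highest in that library, at 1.46 CPM, against 0.27 to 0.74 CPM in the other libraries. The models of Hnrnpk and of Rmi1, on the opposite strand, share 1698 bases around their starts. Rmi1 itself had 5.71 CPM in AmeloD pCMV6.ODAM TGF and 3.57 to 7.03 CPM in the other libraries. Whether reads were counted across these models was not tested. The other 14 hnRNP genes had log2 fold changes of -0.46 to 0.27 and limma adjusted p of 0.128 or more, the lowest for Hnrnpm.

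No snRNP protein gene passed the test. Of 14 members 0 passed the limma test, where only 4.75% of all tested genes were called lower and 9.07% higher. Of these members 12 lay below 0, against 43.0% of all tested genes. The median log2 fold change was -0.08, with a summed level of 510 to 539 CPM in AmeloD and 536 to 572 CPM in Control. Snrpb, which encodes the Sm proteins B and B′, had 8.05, 8.04, 6.75 and 6.62 CPM in AmeloD libraries, against 10.9, 8.66, 8.67 and 11.6 CPM in Control libraries. The groups did not overlap, and the log2 fold change of -0.39 ± 0.15 (SE) did not pass (limma adjusted p = 0.0914), though it did with TMM scaling (0.0300), equal medians (0.0295) and edgeR (0.0291). Snrpn, its imprinted relative known mainly from brain, was near the level filter at 1.24 ± 0.565 CPM in AmeloD and 1.36 ± 0.482 CPM in Control (SD, n = 4 each).

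Snrpd2, an Sm ring protein, had 186, 195, 183 and 185 CPM in AmeloD libraries, against 181, 200.6, 200.8 and 210 CPM in Control libraries. These overlap, and the interval of the difference was -0.26 to 0.10 log2. Snrpg, another ring protein, averaged 115 ± 6.52 CPM in AmeloD and 124 ± 7.56 CPM in Control (SD, n = 4 each; limma adjusted p = 0.524). The model behind Snrpg lies on chromosome 1, while RefSeq has Snrpg on chromosome 4, and spans only 493 bases, and those of Snrpel1 and Snrpd2l 457 and 357 bases, and whether their reads are shared with copies elsewhere was not tested. Snrpe had the smallest spread of all members, with a coefficient of variation of 4.44% over the 8 libraries, where the median member had 20.4% and Hnrnpk had the largest. The other 10 members of the family, which include the pseudogene Snrpc-ps3, had log2 fold changes of -0.24 to 0.28, the highest for Snrpa of the U1 snRNP.

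**Figure D3:**
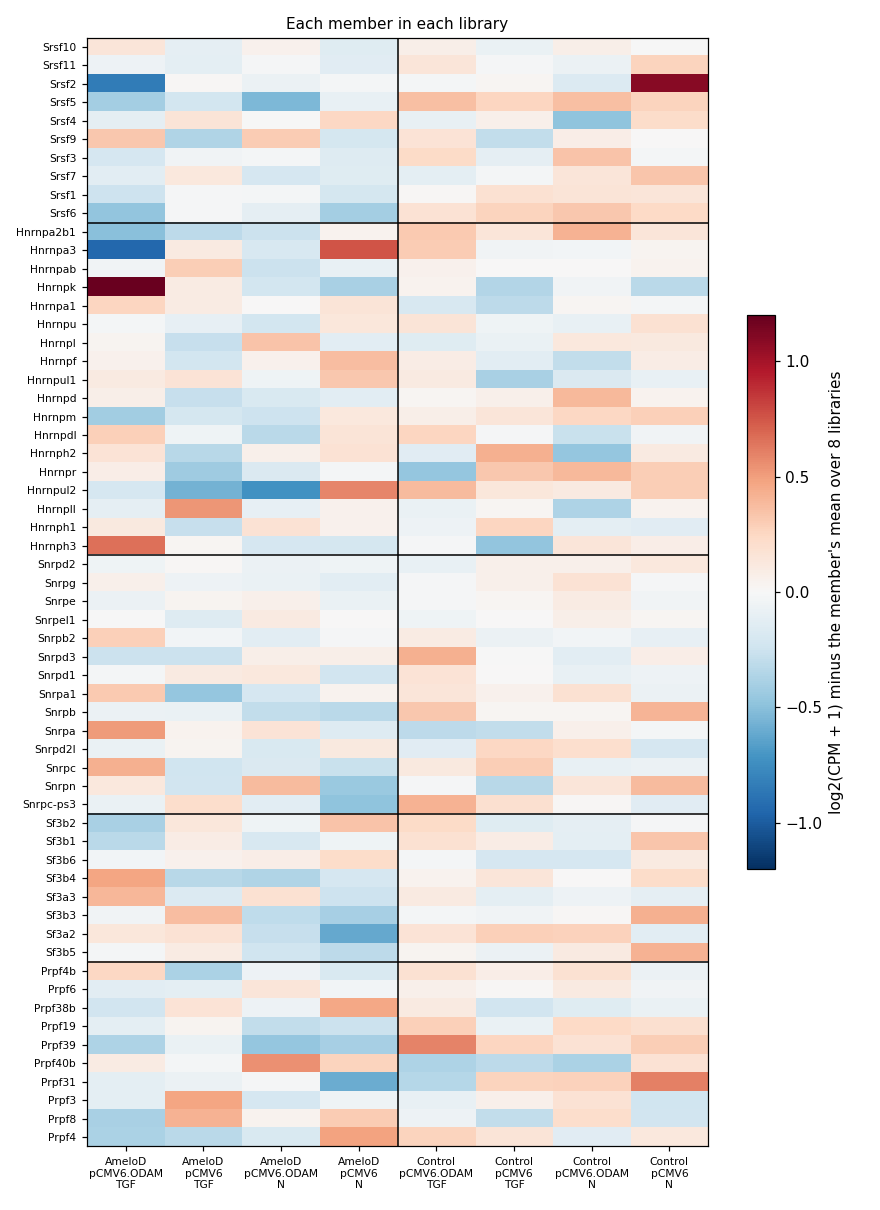
Log2(CPM + 1) of 60 of the 61 members (rows, by family in the order Srsf, Hnrnp, Snrp, Sf3 and Prpf) in each library (columns, AmeloD left), minus the member's mean over the 8 libraries; red is above and blue below that mean. Of 480 values 96.3% lie within 0.5 log2 of the mean, and the strongest colours are Hnrnpk and Hnrnpa3 in AmeloD pCMV6.ODAM TGF and Srsf2 in Control pCMV6 N.

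None of the 8 SF3 genes passed the limma test, where only 4.75% of all tested genes were called lower and 9.07% higher. At an unadjusted p under 0.05 there were 0 higher and 0 lower, against 1166 and 683 of the 6849 tested genes. With edgeR and DESeq2, 0 were called as well. Sf3b1, the branch point subunit around which SF3B is built, had 15.4, 20.8, 16.9 and 18.8 CPM in AmeloD libraries, against 22.2, 20.8, 17.9 and 24.8 CPM in Control libraries. It was lower in all 4 matched comparisons, though by very little in the pCMV6 TGF pair, and the log2 fold change of -0.24 ± 0.13 (SE) did not pass (limma adjusted p = 0.227). Sf3b2, its neighbour within SF3B, averaged 24.1 ± 5.21 CPM in AmeloD and 23.4 ± 2.95 CPM in Control (SD, n = 4 each), and the sign of its difference changed with the scaling. The other 6 had log2 fold changes of -0.30 to 0.16.

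Of 11 PRP genes Prpf39 passed the limma test and 10 did not, where 4.75% of all tested genes were called lower and 9.07% higher. Prpf40b, a U1-associated protein, was named after its values were seen as the 1 member higher at an unadjusted p under 0.05, with 2.20 ± 0.568 CPM in AmeloD and 1.36 ± 0.473 CPM in Control (SD, n = 4 each; limma adjusted p = 0.122). Prpf4b, a kinase of the tri-snRNP, averaged 12.4 ± 2.51 CPM in AmeloD and 14.2 ± 1.22 CPM in Control (limma adjusted p = 0.407). Prpf8, the core of the U5 snRNP at the catalytic centre, averaged 1.47 ± 0.574 CPM in AmeloD and 1.14 ± 0.349 CPM in Control, from 69 and 72 reads, with an interval of -0.23 to 0.60 log2. Summed levels of 10 of the PRP genes were 40.2 to 42.6 CPM in AmeloD and 42.4 to 46.9 CPM in Control, which overlap slightly.

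**Figure D4:**
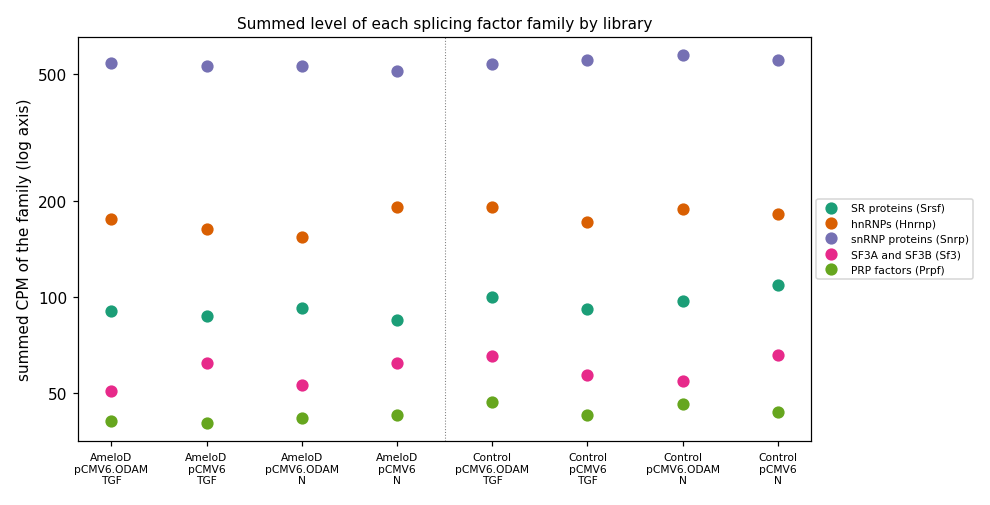
Summed CPM of each family (y axis, log scale; 10 of the PRP genes) in each library, AmeloD left of the dotted line and Control right. Within a family the highest library is at most 1.29 times the lowest.

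The summed level of all 61 members was 884 to 914 CPM in AmeloD and 933 to 971 CPM in Control, without overlap, and the mean of 902 ± 13.9 CPM in AmeloD was 0.943 times that of 957 ± 17.4 CPM in Control (SD, n = 4 each). High genes weigh most in this sum. Hnrnpa2b1 averaged 40.9 CPM in AmeloD and 58.5 CPM in Control, Snrpd2 187 and 198 CPM, and Snrpg 115 and 124 CPM. The sum does not show a fall across the members, of which 21 had a log2 fold change above 0. As a share of the reads in the table, the members took 0.530% to 0.581% in AmeloD and 0.546% to 0.621% in Control, which overlap.

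The TGF label moved no member past the test. With limma 0 were higher and 0 lower, where 1.53% and 0.277% of all tested genes were called, and edgeR and DESeq2 also called 0 members. At an unadjusted p under 0.05 Hnrnpk was higher (log2 fold change 0.49 ± 0.17, SE; adjusted p = 0.195) and Srsf2 lower (-0.42 ± 0.18, SE; adjusted p = 0.344). Of the 6849 tested genes 597 were higher and 219 lower at that level. The Hnrnpk and Srsf2 differences were smaller without a library named above. Without AmeloD pCMV6.ODAM TGF the Hnrnpk log2 fold change was 0.22, and without Control pCMV6 N that of Srsf2 was -0.23. All 61 intervals lay within 1 log2 unit either way, as did 98.3% over all tested genes, on the scale that understates low genes. Of the members 33 lay below 0 (54.1%, against 41.8% of all tested genes) and the median was -0.01. No member had TGF libraries wholly above N libraries, which 3.11% of all tested genes had, and 1, Snrpel1, lay wholly below, against 1.15%.

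The plasmid moved no member past the test either, and limma called 0% of all tested genes higher and 0% lower. The smallest adjusted p among members was 0.665, for Srsf2 (log2 fold change -0.55 ± 0.18, SE). At an unadjusted p under 0.05 Hnrnpk and Srsf9 were higher and Srsf2 and Hnrnpa3 lower in pCMV6.ODAM libraries. Of the 6849 tested genes 316 were higher and 138 lower at that level. With edgeR and DESeq2, 0 members were called. Libraries were separate for 3 members higher in pCMV6.ODAM (Srsf9, Srsf10 and Sf3a3), against 1.43% of all tested genes, and for 2 lower (Srsf4 and Hnrnpll), against 0.628%. Srsf9, an SR protein, had 5.78 and 5.71 CPM in AmeloD and 5.07 and 4.74 CPM in Control with pCMV6.ODAM, against 3.23 and 3.69 CPM in AmeloD and 3.43 and 4.44 CPM in Control with pCMV6. All 61 intervals lay within 1 log2 unit either way on that scale, as did 99.6% over all tested genes.

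For no member was a genotype difference that itself differed between TGF and N libraries detected by the limma interaction test, which called 0% of all tested genes with a higher and 0.0146% with a lower difference in TGF. At an unadjusted p under 0.05 there were 2 members higher and 1 lower, against 143 and 139 of the 6849 tested genes. The smallest adjusted p among members was 0.999. For plasmid the test called 0% and 0% of all tested genes and 0 members. At an unadjusted p under 0.05 there were 0 members higher and 4 lower, against 141 and 167 of the 6849 tested genes. The smallest adjusted p was 0.945, for Hnrnpa3, with -1.14 ± 0.31 (SE), and edgeR and limma after TMM scaling called 0 members for both. These models leave 3 residual degrees of freedom. Intervals within 1 log2 unit either way were found for 40 members with TGF (65.6%, against 58.9% of all tested genes) and 36 with plasmid (59.0%, against 57.6%). For the rest the intervals also held differences above 1 log2 unit.

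Among other splicing genes, too, few differed between the genotypes. In 7 lists of 153 genes beside the members (144 in the table, 125 tested), 6 were lower in AmeloD, 1 higher and 118 not called, and 0 were called for TGF or plasmid by limma. The 4.80% lower is close to the 4.75% of all tested genes called lower, and the 0.800% higher is below the 9.07% called higher. Neither the 35 tested helicases, tri-snRNP and Prp19 complex genes nor the 7 LSm and 6 Snrnp genes held a call for genotype. U2af2, which binds the polypyrimidine tract before the 3′ splice site, was 1 lower gene among 17 for splice site and branch point recognition, with 30.3, 29.6, 32.6 and 27.1 CPM in AmeloD libraries, against 50.1, 41.1, 43.1 and 50.6 CPM in Control libraries. The groups lay far apart (log2 fold change -0.61 ± 0.11, SE; limma adjusted p = 0.000564).

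Tra2b and Tra2a, SR-like activators of exon inclusion, were the 2 lower genes of 22 SR protein kinases and SR-related factors. Tra2b had 38.4, 21.3, 28.0 and 29.0 CPM in AmeloD libraries, against 41.5, 50.6, 45.1 and 45.8 CPM in Control libraries (log2 fold change -0.66 ± 0.14, SE; limma adjusted p = 0.00157). Tra2a averaged 4.03 ± 0.362 CPM in AmeloD and 6.21 ± 0.990 CPM in Control (SD, n = 4 each; limma adjusted p = 0.0398), a call lost in 8 of 15 settings. Rnps1, a splicing activator that joins the exon junction complex, was the 1 lower gene of 8 there, with 26.6, 25.4, 28.6 and 26.2 CPM in AmeloD libraries, against 36.8, 39.9, 42.3 and 69.9 CPM in Control libraries. The AmeloD libraries were nearly alike and Control pCMV6 N stood high (log2 fold change -0.76 ± 0.13, SE; limma adjusted p = 0.000289).

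Of 30 other regulators 2 were lower, Tardbp (12.9 ± 2.12 CPM in AmeloD and 17.8 ± 1.43 CPM in Control; limma adjusted p = 0.0209), which represses cryptic exons, and Mbnl1 (27.1 ± 2.12 CPM in AmeloD and 36.5 ± 4.89 CPM in Control; limma adjusted p = 0.0259), a regulator of tissue-specific exons. Taf15, of the FET family of RNA-binding proteins, was the 1 higher gene (4.53 ± 0.721 CPM in AmeloD and 2.58 ± 0.478 CPM in Control; SD, n = 4 each; limma adjusted p = 0.0167). U2af2, Tra2b and Rnps1 remained called in all 15 settings, whereas Tardbp and Taf15 each lost the call in 4 and Mbnl1 in 6.

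Some proliferation markers were lower in AmeloD beside these genes. Of 14 tested, 5 were lower by limma (Mki67, Mcm3, Mcm5, Ccnb1 and Rrm2), 0 higher and 9 not called, where 4.75% of all tested genes were called lower. The 14 had a median log2 fold change of -0.45, and all 15 listed markers summed to 41.6 to 72.8 CPM in AmeloD and 75.3 to 101 CPM in Control. Their part in the splicing factor differences was not tested.

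**Figure D5:**
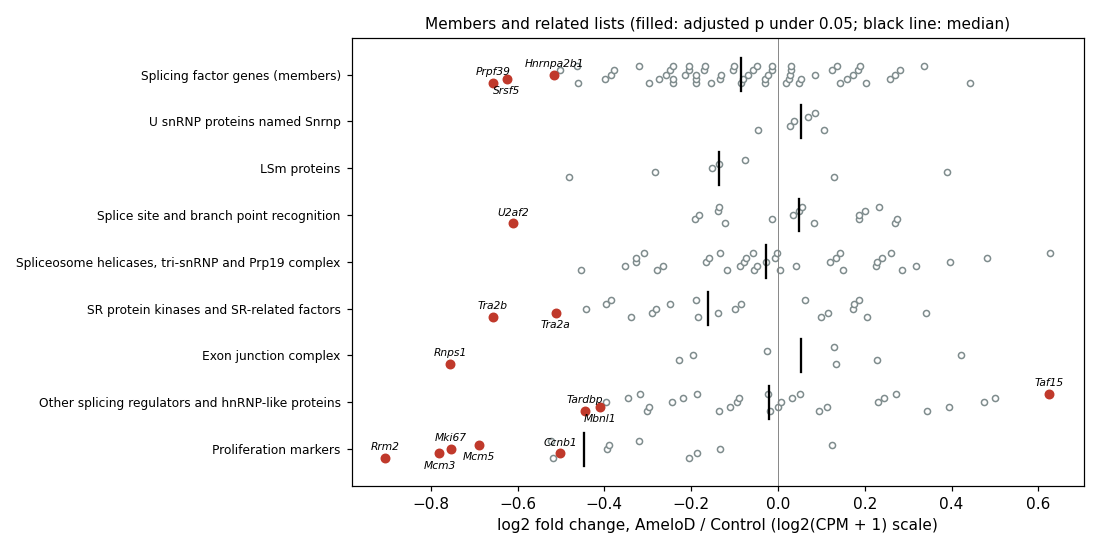
Log2 fold change of AmeloD over Control (x axis, log2(CPM + 1) scale) for the 61 members and for each related list and the proliferation markers; red points had an adjusted p under 0.05 and are named, and the black line is the list's median. The median of the members is -0.09 and that of the proliferation markers -0.45.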

How the data were processed

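RNA of 8 libraries was sequenced from its 3′ ends (a Qiagen UPX kit on a DNBSEQ-G400 instrument, per the labels' protocols). The submitters' processing notes name STAR 2.7.10a, the build mRatBN7.2 and featureCounts 2.0.1, DESeq2 1.20.0, and for trimming cutadapt 3.7, Trimmomatic 0.39 and Trim Galore 0.6.7. The sources used here do not give whether molecular identifiers, strand or shared reads were considered. The authors deposited CPM per gene. The total behind each library's CPM was inferred here from its smallest CPM step, taken as 1 read, and exceeds the reads in the table. Each value, 100% of them, was a whole multiple of 1 read within 0.01, so the reads could be recovered. Differences were tested with limma 3.58.1 (R 4.3.3, eBayes with trend) on log2 of the deposited CPM plus a pseudocount of 1, in a fit of genotype, plasmid and TGF without interactions that leaves 4 residual degrees of freedom. Tests were two-sided with a Benjamini-Hochberg threshold of 0.05 over 6849 genes, and intervals are 95% intervals of that fit. Alternatives were a pseudocount of 0.5, no level filter, TMM scaling, equal medians, edgeR 4.0.16 and DESeq2 1.42.0 on the recovered reads, each library left out, and a block of the 4 pairs of libraries that differ in 1 factor alone. In simulated libraries with 6849 genes, 38%, 88%, 98% and 100% of the genes changed by 1.5, 2, 4 and 8 times between AmeloD and Control were called, and 5.26% of calls were false. The simulated reads had the same dispersion for every gene, no effect of TGF or plasmid and no library set apart. These rates need not hold for the real libraries. Members given with most detail were those past the test, the 2 with most reads in each family and a fixed set of well-known genes; from the lists they were those past the test. One PRP member is not reported here by itself and is left out of the family sum and of the plots that name members, but is in the counts, medians and total over 61 members. The members and lists were chosen with earlier results of these data known.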

Additional observations from a re-analysis of the deposited data

Results flagged for a closer look

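In 64 groups of 4 libraries (each named gene and each family sum, by genotype), 4 held a library far from the other 3 by Dixon's test at its 95% critical value; chance flags about 1 in 20 groups. Srsf2 was at 3.44 CPM in AmeloD pCMV6.ODAM TGF, against 6.60 to 7.02 CPM in the other AmeloD libraries. Srsf2 was at 16.0 CPM in Control pCMV6 N, against 6.09 to 7.09 CPM in the other Control libraries. Rnps1 was at 69.9 CPM in Control pCMV6 N, against 36.8 to 42.3 CPM in the other Control libraries. Tra2a was at 4.74 CPM in Control pCMV6.ODAM N, against 6.53 to 6.82 CPM in the other Control libraries. Why these libraries stood apart was not tested.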

How the results depend on the processing

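The count of members lower in AmeloD was 3 and became 6 with TMM scaling, 6 with equal medians and 6 with edgeR, which added Snrpb, Srsf2 and Srsf6; leaving out a library gave 2 to 4. These settings moved the median of all tested genes by less than 0.1 log2, and the share of higher among all genotype calls was 65.6% as deposited, 52.5% with TMM scaling, 49.0% with equal medians, 53.6% with edgeR and 53.3% with DESeq2. The share of all tested genes called lower was then 7.02%, 7.45%, 6.50% and 5.30%. DESeq2 gave 3 members and no filter 2. Counts for TGF, plasmid and the interactions stayed at 0 members under every setting run. Without AmeloD pCMV6 N, Hnrnpul2 was also called. Small uncalled differences changed sign. Sf3b2 became -0.0494 with TMM scaling, -0.0547 with equal medians, -0.0505 with edgeR and -0.0518 with DESeq2, and was -0.0853 to 0.199 over the fits that left out a library. Left-out libraries gave Srsf10 -0.0636 to 0.0047, Hnrnpa3 -0.367 to 0.165 and Snrpn -0.172 to 0.105. With the 4 matched pairs of libraries as a block, an alternative chosen after seeing the data that leaves 3 residual degrees of freedom, 3 members were lower in AmeloD, again Hnrnpa2b1, Srsf5 and Prpf39, 0 were higher, and 0 were called for TGF or plasmid. Prpf39, Prpf8, Snrpn and other members near 1 CPM rest on few reads (60 and 163 for Prpf39 in AmeloD and Control), which limits what could be detected for them.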

Other observations

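Cbx3, which encodes a heterochromatin protein and lies head to head with Hnrnpa2b1 with 760 bases between their models (mRatBN7.2, chr4:80546010-80559283 on the plus strand and chr4:80534651-80545249 on the minus strand), was also lower in AmeloD. It had 7.32, 10.4, 11.5 and 10.6 CPM in AmeloD libraries (pCMV6.ODAM TGF, pCMV6 TGF, pCMV6.ODAM N and pCMV6 N), against 14.2, 12.0, 14.0 and 14.9 CPM in Control libraries in the same order. The groups did not overlap, and the log2 fold change was -0.44 ± 0.14 (SE), limma adjusted p = 0.0396. The pair was looked at after the Hnrnpa2b1 result was known. The call held with TMM scaling (0.0126), edgeR (0.0151) and DESeq2 (0.0194), and was lost in 6 of 8 fits that left out a library, at limma adjusted p of up to 0.174. Nfe2l3, whose model ends 21 bases beyond the 3′ end of Hnrnpa2b1, had at most 0.0946 CPM in any library.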
